A study of Mus musculus with 5 samples.

Results

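Translation factors are the proteins that bring messenger RNA, initiator tRNA and ribosome together (initiation, eIF) and then move the ribosome along the message (elongation, eEF). Their messages were followed here in mouse macrophages after contact with bacterial lipopolysaccharide (LPS), part of the outer membrane of Gram-negative bacteria. The members were the genes whose symbol starts with Eif or Eef and a number, apart from the interferon-induced kinase gene Eif2ak2. Only probes that carried exactly 1 gene symbol and had a value on all 5 arrays were used. This gave 52 of 8637 genes, measured by 105 probes, of which 41 were initiation and 11 elongation genes. Another 5 probes of Eif3b, Eif1ax, Eif4a2, Eif3a and Eif5 lacked a value on at least 1 array and were left out, which removed no gene.

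Bone marrow cells of C3H/ARC mice had been grown into macrophages in vitro with human CSF-1, which drives differentiation to this cell type. They received LPS of S. minnesota at 10 µg per ml for 0.5, 2, 7 or 21 h, or were left untreated (0 h). Channel 2 of every two-colour array held the same kind of common RNA, from whole C57BL6/J embryos of day 17.5. Each time was measured on 1 array, so no p-value can be given, all changes share the 0 h array, and nothing is known of the spread between cultures or animals. In bulk RNA, fewer cells of a type and less RNA per cell cannot be told apart.

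Values below are log2 ratios of macrophage to embryo minus the median of each array, averaged over the probes of a gene. A change is the difference between the log2 ratio of a gene after LPS and its log2 ratio at 0 h. Changes at or beyond 2-fold (1 log2 unit) and 1.5-fold (0.58 log2 units) are counted as rules of size. The only error is technical. For the 27 members with 2 or more probes, the pooled SD between probes for the same gene was 0.47, 0.72, 0.49 and 0.41 log2 units for the changes at 0.5, 2, 7 and 21 h. For single genes, the SD between the probes of that gene alone is given below as "SD over probes". For the 25 members with 1 probe no such value exists.

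The deposited log ratios were read as base 10, and their direction as macrophage over embryo. Neither is stated in the sources used here. With base 2, every log2 value below would be 3.32 times too large, and with the other direction higher and lower would exchange. The median deposited value of 9 measured macrophage markers ran from 0.428 to 0.677 over the 5 arrays, and that of 20 whole-embryo markers from -0.703 to -0.494, which makes the direction likely. Values 10-fold or more over the median of the array made up 0.191% of probes at 0 h, 2.87% at 0.5 h and 4.36% at 2 h. These high values followed the probe number. Of 207 runs of 96 consecutive probes, 94 were marked because 10% or more of their probes had a 2-fold higher value than on the 0 h array, either at 0.5 h or at 2 h. They hold 45.3% of all probes and 51 of the 105 probes of translation factors. Of the 52 members, 18 had all their probes in marked runs, 17 had none there and 17 had probes on both sides. What gave the high values in these runs was not tested.

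In initiation, eIF2 carries the initiator tRNA as a complex with GTP, eIF1A and its partners position the small ribosomal subunit at the start codon, and eIF3 is the large scaffold on that subunit. The eIF4 proteins recognise the cap of the message and unwind it. In elongation, eEF1A delivers aminoacyl-tRNA, the eEF1B subunits recharge eEF1A with GTP, and eEF2 moves the ribosome to the next codon. Messages of elongation factors and ribosomal proteins are textbook TOP messages: they begin with a C followed by a tract of pyrimidines (C or T), through which mTOR signalling controls their translation. LPS is known to engage mTOR and the eIF4E-binding proteins in macrophages.

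The stretches around the RefSeq start site of 3 elongation genes are shown because these genes had the lowest of their 5 values at 21 h, and that of Eif4b because its highest value was there. Each runs from 30 bases before to 50 bases after the start on build GRCm38.p6, 5′ to 3′ on the strand of the gene. Capitals mark every C followed by at least 5 pyrimidines. The spans are chr9:78481675-78481754 on the minus strand for Eef1a1, and on the plus strand chr1:63176801-63176880 for Eef1b2, chr10:81176601-81176680 for Eef2 and chr15:102073743-102073822 for Eif4b.
Eef1a1: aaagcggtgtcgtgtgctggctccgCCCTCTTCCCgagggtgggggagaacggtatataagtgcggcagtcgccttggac
Eef1b2: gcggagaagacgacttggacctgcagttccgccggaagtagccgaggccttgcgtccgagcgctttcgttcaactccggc
Eef2: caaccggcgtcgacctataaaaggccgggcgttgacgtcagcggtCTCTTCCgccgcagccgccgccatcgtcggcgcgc
Eif4b: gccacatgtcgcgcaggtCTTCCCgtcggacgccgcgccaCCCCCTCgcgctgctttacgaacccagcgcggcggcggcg

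A match of this kind, called a tract here, was present in the windows of Eef1a1, Eef2 and Eif4b and not in that of Eef1b2. None of these matches began at the RefSeq start itself. That of Eef1a1 began before it, at position -5, and that of Eef2 after it, at position 16. Of the 2 matches of Eif4b, the first lay before the start and the other after it. Whether any of them opens the message was not tested. The RefSeq table held 40 of the 52 members, and 22 of these (55.0%) had a tract in the window of at least 1 start site. Among all 27025 genes of the table the share was 53.2%, and among 54 ribosomal protein genes of these arrays it was 85.2%. On the opposite strand the share was 62.5% in members and 57.2% in all genes. The motif search allowed no mismatch, and a tract is a match of letters and not a mapped start of transcription. The median change of the 22 members with a tract was 0.14, 0.15, 0.069 and -0.16 at 0.5, 2, 7 and 21 h. That of the 18 members without one was 0.34, 0.15, 0.033 and 0.17. The set with a tract thus had the lower median at 0.5 h and 21 h and the higher one at 7 h. At 0.5 h both medians were above 0 h. Whether the sets differ beyond their spread was not tested.

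At both 7 h and 21 h, 37 of the 52 members lay within 1.5-fold of 0 h, a share like that of all genes (71.4%). At all 4 later times 33 did, against 53.4% of all genes. The median change of the members was 0.25, 0.15, 0.080 and 0.011 log2 units at 0.5, 2, 7 and 21 h. Over all genes it was 0.078, 0.070, -0.00029 and 0.022. At 21 h the median change was 0.11 over the 41 initiation members and -0.24 over the 11 elongation members. At 7 h these medians were 0.11 and 0.063.

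**Figure D1:**
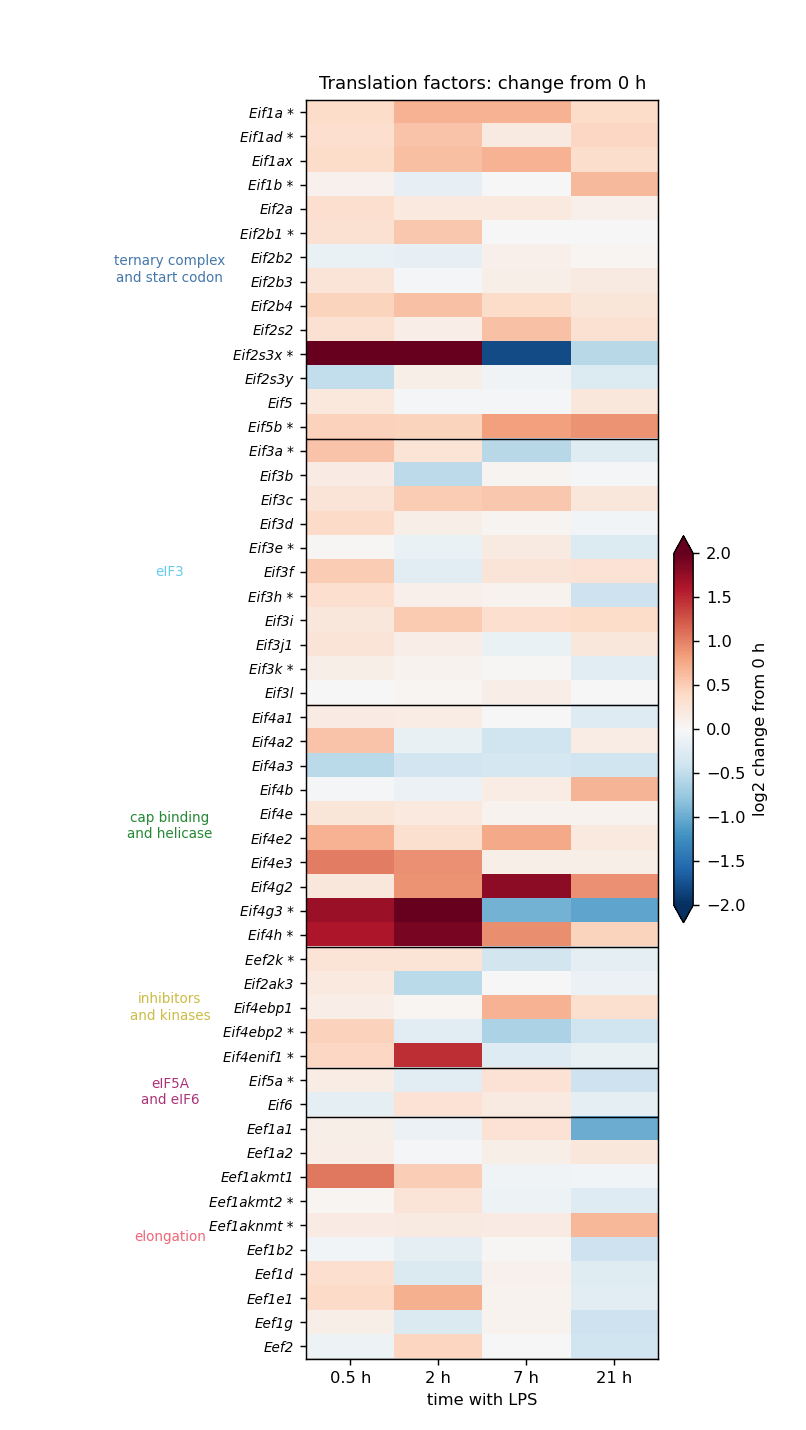
Log2 change from 0 h (colour, clipped at 2 either way) of the 52 translation factor genes (rows, by functional group) after 0.5, 2, 7 and 21 h of LPS, with 1 array per time. An asterisk marks genes with all probes in marked runs. The strongest reds at 0.5 h and 2 h are Eif2s3x, Eif4g3 and Eif4h, all with an asterisk, the strongest red at 7 h is Eif4g2, and Eef1a1 and Eif4g3 are the deepest blues at 21 h.

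At 0.5 h, 5 of 52 members were at least 2-fold higher than at 0 h (background 5.95% of all genes), and none was 2-fold lower (background 1.01%). At 2 h, 4 were at least 2-fold higher (background 12.4%) and 0 lower (background 1.1%). At 7 h, 1 was higher and 1 lower (backgrounds 4.08% and 3.16%). At 21 h, 0 were higher and 1 lower (backgrounds 3.05% and 1.45%). The share of members was above the background at 0.5 h (9.62%) and below it at 2 h (7.69%), and the calls at 7 h and 21 h were single genes. Of the early calls, only Eif4e3 and 1 of 2 probes of Eef1akmt1 lay outside marked runs. With probes outside the runs only, 34 members remained measured, of which 1 was 2-fold higher at 0.5 h (background 1.28%) and 0 at 2 h (background 4.22%). At 7 h 2 of them, Eif1ax and Eif4g2, were higher (background 4.52%), and at 21 h 0 were (background 2.55%). None was 2-fold lower outside the runs at any time, with backgrounds of 0.984%, 1.55%, 2.87% and 1.08% in order of time. Smaller positive changes at 0.5 h were widespread. In all, 45 of 52 members lay above 0 h (background 59.2%), and outside the runs 25 of 34 (background 52.8%).

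At the 1.5-fold rule, 6 members were higher at 0.5 h (background 12.7%) and 9 at 2 h (background 21.8%), and 0 were lower at either time (backgrounds 4.38% and 5.71%). At 7 h, 8 members were higher and 3 lower, with backgrounds of 11.6% and 10.8%. At 21 h, 5 were higher and 2 lower, with backgrounds of 9.12% and 6.48%. Outside the marked runs 2, 5, 7 and 4 of 34 members were 1.5-fold higher in order of time (backgrounds 5.32%, 10.8%, 12.6% and 9.14%). There 0 were 1.5-fold lower at 0.5 h (background 5.07%), and Eif4a1 alone at 2 h, 7 h and 21 h (backgrounds 8.36%, 9.46% and 5.4%). Just inside the 2-fold line were Eef1akmt1 (1.05) and Eif4e3 (1.02) at 0.5 h and Eif4g3 (-1.05) at 21 h. Just outside were Eef1a1 (-0.99), Eif4g2 (0.91) and Eif5b (0.90) at 21 h, Eif4h (0.94) and Eif4g3 (-0.95) at 7 h, and Eif4e3 (0.91) at 2 h.

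Of the elongation factor subunits, Eef1a1, Eef1b2, Eef1g and Eef2 had their lowest value on the 21 h array and Eef1d at 2 h. The 5 genes that encode the general machinery, Eef1a1 (eEF1A), Eef1b2, Eef1d and Eef1g (eEF1B) and Eef2 (eEF2), all lay below 0 h at 21 h, with a median change of -0.41 and a range from -0.99 to -0.24. The median change of all genes was 0.022. These genes were set apart by role, with their values known, so their number and direction are a description. Of their 20 probes, 18 lay below 0 h at 21 h, as did 46.1% of all probes. At 0.5, 2 and 7 h, 4, 14 and 6 of the 20 did so, beside 40.8%, 45.5% and 47.6% of all probes. At 2 h the median change of the 5 genes was -0.20, with 4 of them below 0 h.

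Eef1a1, one of the most abundant messages of growing cells, had log2 ratios of -0.57, -0.45, -0.68, -0.29 and -1.56 at 0, 0.5, 2, 7 and 21 h. The 21 h array was below the other 4, which lay between -0.68 and -0.29. The change from 0 h was -0.99 (SD over probes 0.53, 5 probes). The single probes gave -1.64, -1.09, -1.03, -1.01 and -0.16, so 4 of 5 were at least 2-fold lower. The probe with -0.16 was the 1 outside the marked runs. Its ratio was -1.01 at 0 h, -0.14 at 7 h and -1.17 at 21 h. All 5 probes had their lowest value of the 5 arrays at 21 h, as did 15.2% of all probes.

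Eef1g, the scaffold of the exchange complex, had log2 ratios of -0.63, -0.51, -0.92, -0.57 and -1.05 in order of time. Its change at 21 h was -0.42 (SD over probes 0.36, 6 probes), and 5 of its 6 probes lay below both 0 h and 7 h. Eef1b2, an exchange subunit, had ratios of -0.64, -0.70, -0.84, -0.62 and -1.05, with a change at 21 h of -0.41 (SD over probes 0.13, 3 probes). In both genes the 21 h array was again the lowest, with 2 h next. Eef1d, the other exchange subunit, had ratios of -0.64, -0.30, -0.93, -0.55 and -0.88. Its change of -0.24 was smaller than its SD over probes of 0.45, and its lowest array was 2 h. Eef2 had ratios of -0.82, -0.92, -0.39, -0.82 and -1.22 and a change at 21 h of -0.40 (SD over probes 0.46, 3 probes). Its probes gave -0.13, -0.14 and -0.93 at 21 h. They also disagreed at 2 h, where 1 of them stood 1.84 above 0 h and another 0.80 below.

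**Figure D2:**
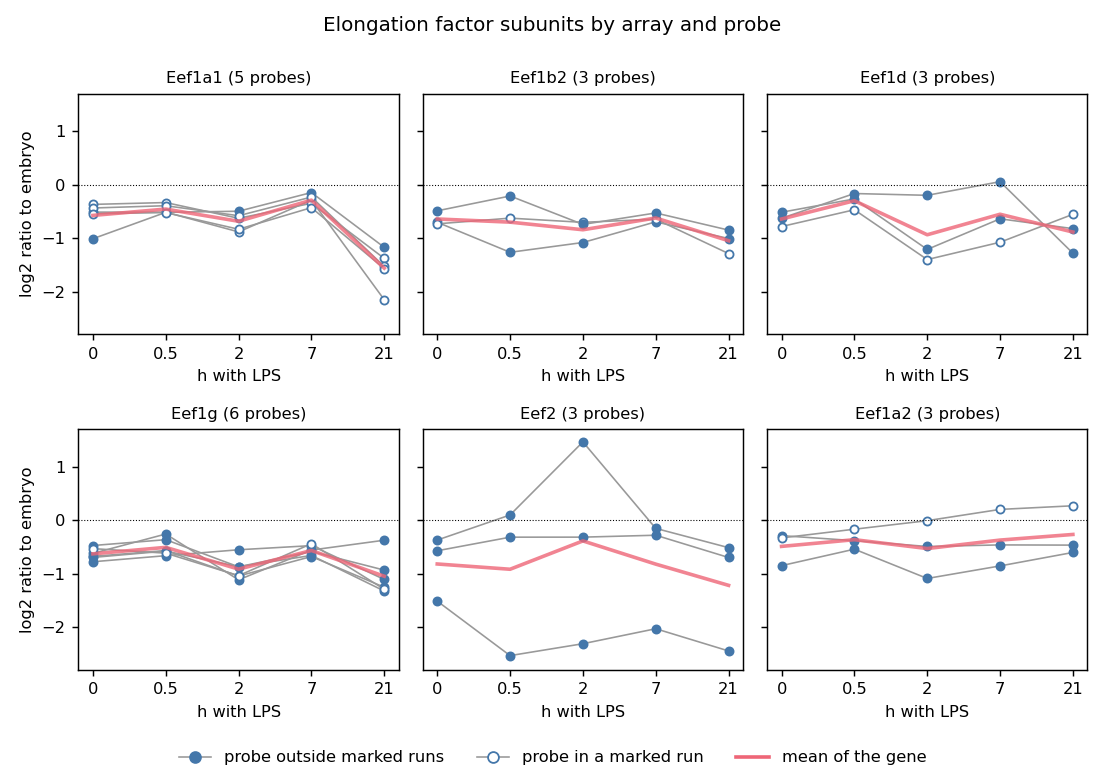
Log2 ratio of macrophage to embryo by array (0, 0.5, 2, 7 and 21 h of LPS) for 6 elongation factor genes. Thin lines are single probes (open circles in marked runs, filled circles outside), the thick red line is the mean of the gene and the dotted line is equality with the embryo. In Eef1a1 all 5 probes are lowest at 21 h, while the mean of Eef1a2 stays between -0.53 and -0.27.

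Against the 0.5, 2 and 7 h arrays the median change of the 5 subunits at 21 h was -0.54, -0.21 and -0.43. Eef1a1 was lower against each of them (-1.11, -0.88 and -1.27), and Eef1d was not lower against 2 h (0.051). Of the 20 probes, 18 were lower at 21 h than at 7 h, as were 48.9% of all probes, and 15 had 21 h as their lowest array. Outside the marked runs, 12 of 13 probes were lower than at 7 h and the median change of the 5 genes from 0 h was -0.35. For Eef1a1 the change from 0 h outside the runs was -0.16, on 1 probe.

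The mean of the tissue-restricted isoform gene Eef1a2, which replaces Eef1a1 in muscle and neurons, did not share this course. Its ratios were -0.49, -0.36, -0.53, -0.37 and -0.27, with a change at 21 h of 0.22 (SD over probes 0.39, 3 probes). The probe in a marked run gave 0.60, and those outside gave -0.18 and 0.25 (mean 0.035). Outside the runs Eef1a1 stood at -0.16, so the 2 genes were closer there. The coding sequences of Eef1a1 and Eef1a2 are close copies, so their cDNA probes may detect both. Ribosomal protein genes, whose messages also carry TOP tracts, had lower values on the 21 h array as well. Over 66 of them the median change at 2 h was -0.099, with 55 below 0 h, as were 3802 of all 8637 genes. At 21 h it was -0.18, with 52 below 0 h (background 47.5%). Against 7 h it was -0.26, with 56 below, as were 4066 of all 8637 genes. For the 58 of them with probes outside the marked runs the median change from 0 h was -0.12. On the same array 6 neutrophil markers had a median change of -0.51, and 1 of them lay above embryo, against 4 at 0 h. The median change of the 9 macrophage markers was -0.094. That of 3 B cell markers was 1.03 at 7 h and 0.46 at 21 h, with Cd79b at 2.41 and 1.79, and that of 2 T and NK cell markers was 0.46 and 0.22. The part of other cells in the lower elongation factor values was not tested.

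The remaining elongation members are enzymes that act on eEF1A or eEF2 and a partner of tRNA synthetases. Eef1aknmt, a methyltransferase of eEF1A, had ratios of -1.78, -1.62, -1.60, -1.61 and -1.12, with a change of 0.66 at 21 h on 1 probe in a marked run. Eef1akmt1, a lysine methyltransferase of eEF1A, stood 1.05 above 0 h at 0.5 h (SD over probes 1.30). That value came from 1 probe in a marked run with a change of 1.97, while its other probe showed 0.13. Eef2k, the kinase that inactivates eEF2, had changes of 0.28, 0.27, -0.37 and -0.17 on 1 probe. Eef1e1, a component of the multi-synthetase complex, reached 0.71 at 2 h (SD over probes 0.88). Eef1akmt2 stayed between -0.26 and 0.25 on 1 probe in a marked run.

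Among initiation factors, Eif4g2 had the highest value above 0 h at 7 h. It encodes a relative of eIF4G that does not bind the cap-binding protein eIF4E and serves initiation without the cap. Its log2 ratios were -0.29, -0.07, 0.60, 1.499 and 0.62 at 0, 0.5, 2, 7 and 21 h, on 1 probe outside the marked runs. The 7 h array was the highest, 2 h and 21 h were alike, and 0 h was the lowest. This was 3.46-fold above 0 h at 7 h (change 1.79) and 1.88-fold at 21 h (change 0.91). Against the 0.5 h array the changes were 1.57 and 0.68. No second probe is available to give a spread.

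The other proteins around the cap differed in course. Eif4b, which stimulates the eIF4A helicase, had ratios of 0.13, 0.11, 0.02, 0.28 and 0.80, so that 21 h stood apart from the 4 earlier arrays. The change at 21 h was 0.67 (SD over probes 0.08), with 0.73 on the probe outside the marked runs and 0.62 on the probe inside. Eif4e2, a cap-binding homologue that represses translation, had ratios of -0.22, 0.49, 0.11, 0.54 and -0.02 on 1 probe outside the runs, with changes of 0.70 at 0.5 h and 0.76 at 7 h. Eif4e3, another eIF4E homologue, had ratios of 0.89, 1.91, 1.80, 1.01 and 1.02 on 1 probe outside the runs, so the 0.5 h and 2 h arrays stood above the other 3. Under quantile normalization its changes at 0.5 h and 2 h were 0.28 and -0.15, so the 2-fold call was lost and the sign at 2 h turned.

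The main cap-binding protein gene Eif4e and the main helicase gene Eif4a1 stayed near 0 h. Eif4e, with 4 probes, had changes between 0.063 and 0.24, all below its SD over probes of 0.41 to 0.54. Eif4a1, with 5 probes, had ratios of 0.74, 0.91, 0.90, 0.73 and 0.49, above embryo on every array. Its change of -0.26 at 21 h was smaller than its SD over probes of 0.43, and on its 1 probe outside the marked runs the change was -0.87. Eif4a1 and its close relative Eif4a2 are near-copies, so their probes may detect both.

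The early changes of Eif4g3 and Eif4h came from single probes in marked runs. Eif4g3, a scaffold of the cap-binding complex, had ratios of 1.05, 2.78, 6.17, 0.10 and -0.00018 (change of 5.12 at 2 h and -1.05 at 21 h). Eif4h, a stimulator of the helicase, averaged 1.90 above 0 h at 2 h, but its probes gave 4.25 and -0.45 (SD over probes 3.32). At 7 h they gave 1.67 and 0.21. Under quantile normalization the changes at 2 h were 2.02 for Eif4g3 and 0.79 for Eif4h, below 2-fold for Eif4h, and that of Eif4g3 at 0.5 h was 0.68.

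**Figure D3:**
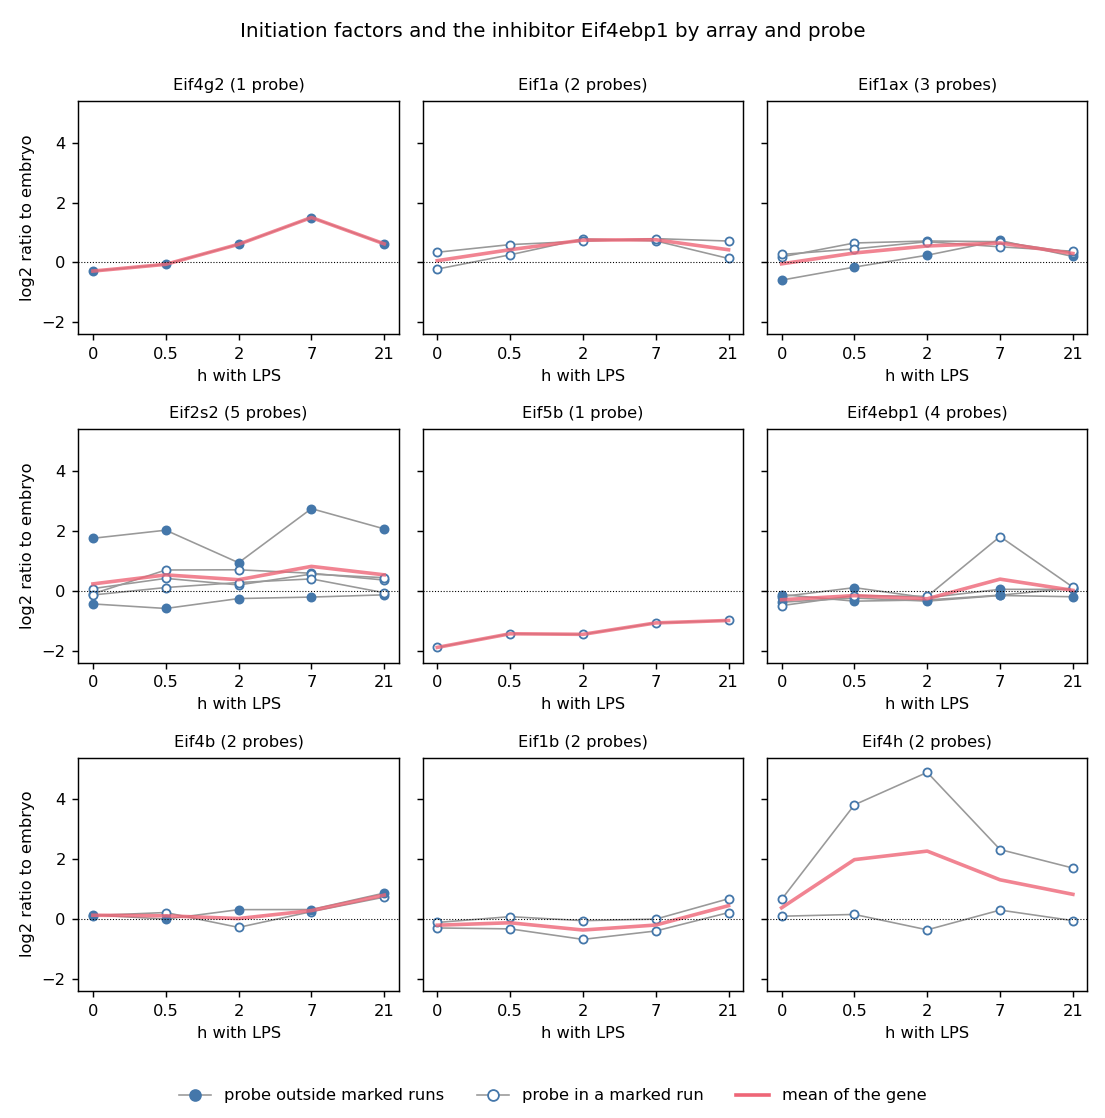
Log2 ratio of macrophage to embryo by array (0, 0.5, 2, 7 and 21 h of LPS) for 8 initiation factors and the inhibitor gene Eif4ebp1. Thin lines are single probes (open circles in marked runs, filled circles outside) and the thick line is the mean of the gene. Eif4g2 peaks at 7 h, both probes of Eif4b and of Eif1b are highest at 21 h, and 1 probe each sets the peaks of Eif4ebp1 and Eif4h.

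Factors that deliver the initiator tRNA and select the start codon tended to lie above 0 h. The median change of these 14 genes was 0.32, 0.31, 0.15 and 0.23 at 0.5, 2, 7 and 21 h. At 21 h 12 of the 14 lay above 0 h, as did 4535 of all 8637 genes. Of the 12, Eif2b1 (0.013) and Eif2b2 (0.041) lay close to 0 h. For the 8 of the 14 with probes outside the marked runs, the medians were 0.23, 0.040, 0.15 and 0.20. Eif1a and Eif1ax encode eIF1A, which takes part in scanning for the start codon. Eif1a had ratios of 0.06, 0.42, 0.74, 0.75 and 0.42, and Eif1ax had -0.05, 0.31, 0.55, 0.65 and 0.30. Both were highest at 7 h, with changes of 0.70 (SD over probes 0.34, 2 probes) and 0.70 (SD over probes 0.56, 3 probes). These genes are close copies, so their probes may detect both. The 1 probe outside the marked runs, of Eif1ax, stood 1.33 above 0 h at 7 h. All 5 of their probes were above 0 h at every later time.

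Eif2s2, the beta subunit of eIF2, had ratios of 0.23, 0.53, 0.37, 0.81 and 0.53. Its change at 7 h was 0.59 (SD over probes 0.28), and all 5 probes lay above 0 h at 7 h and at 21 h. Eif5b, the GTPase that joins the ribosomal subunits, had ratios of -1.90, -1.44, -1.46, -1.08 and -0.99 on 1 probe in a marked run. It was below embryo throughout and least so at 21 h, with a change of 0.90. Eif1b, a relative of the start codon factor eIF1, had ratios of -0.20, -0.12, -0.37, -0.20 and 0.45. Its change at 21 h was 0.65 (SD over probes 0.20, 2 probes in marked runs), and the highest of the 4 earlier arrays was -0.12.

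The gamma subunit of eIF2 is encoded on both sex chromosomes. Eif2s3x had ratios of 2.96, 6.23, 5.02, 1.17 and 2.41 on 1 probe in a marked run. It was the member farthest above embryo at 0 h, and its changes ran from 3.27 at 0.5 h to -1.79 at 7 h. The early values have no settled sign, since under quantile normalization the changes at 0.5 h and 2 h were -0.60 and -2.31. Its Y-linked counterpart Eif2s3y had ratios of 0.20, -0.29, 0.32, 0.14 and -0.07 on 1 probe outside the runs. The exchange factor genes Eif2b1, Eif2b2, Eif2b3 and Eif2b4 lay within 1.5-fold of 0 h at every time, as did 53.4% of all genes. Their changes ran from -0.17 to 0.58. The highest was Eif2b4 at 2 h, just inside the 1.5-fold line (0.584 against 0.585). Eif2b1 stood at 0.54 at 2 h (SD over probes 1.28), where its 2 probes, both in marked runs, gave 1.45 and -0.36. The GTPase activator gene Eif5, with 3 probes, had changes from -0.043 to 0.22. The value of 0.22 was at 21 h (SD over probes 0.62), with 1 probe above 0 h and 2 below.

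The 11 measured genes of eIF3 stayed near 0 h. Their median change was 0.25, 0.11, 0.070 and -0.021 in order of time, and 0 passed 1.5-fold at any time. Of all genes, 53.4% stayed within 1.5-fold at every later time. Eif3a came closest to the line, with 0.56 at 0.5 h and -0.56 at 7 h on 1 probe in a marked run. On probes outside the marked runs Eif3c and Eif3i passed 1.5-fold at 2 h and 7 h, and Eif3i at 21 h. At 0.5 h all 11 lay above 0 h, with changes from 0.010 to 0.56 (background 59.2%, all members 86.5%). On probes outside the marked runs 6 of 7 did, and Eif3j1 stood at -0.20. Eif3l, with 3 probes, had ratios between -0.91 and -0.78, and its changes did not exceed 0.13. Its probes disagreed, with changes of 1.17, -0.25 and -0.53 at 7 h. Eif3c had changes of 0.51 at 2 h and 0.53 at 7 h (SD over probes 0.23 and 0.60). Eif3e had changes of 0.18 at 7 h and -0.28 at 21 h (SD over probes 0.072 and 0.19, 2 probes in marked runs).

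**Figure D4:**
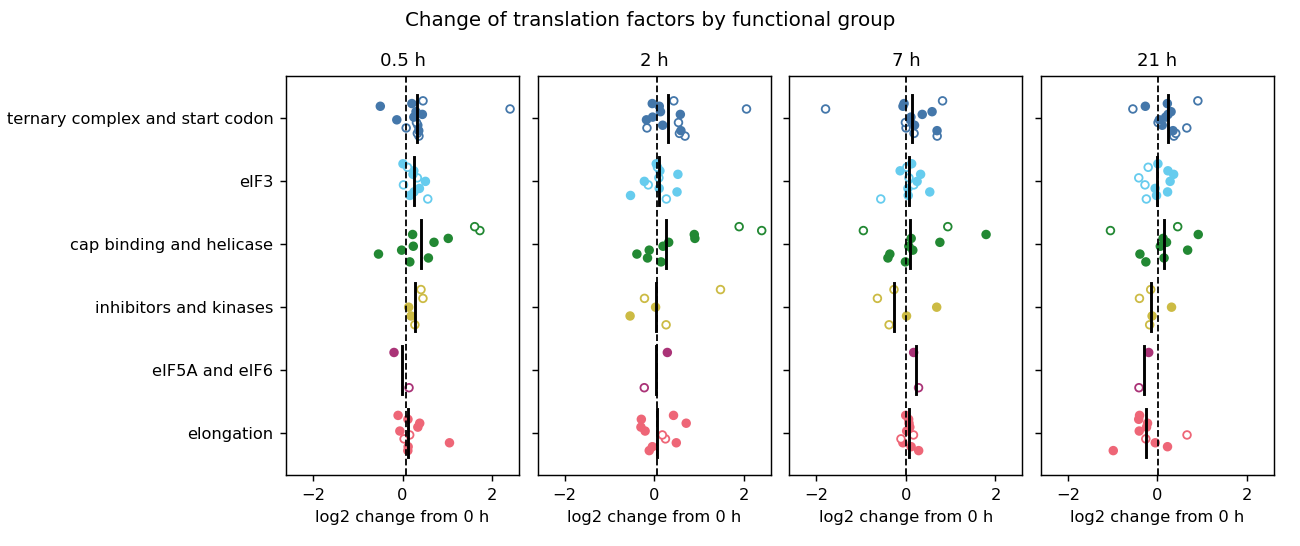
Log2 change from 0 h of single translation factor genes (points, clipped at 2.4 either way) in 6 functional groups after 0.5, 2, 7 and 21 h of LPS. Open points have all probes in marked runs, solid bars are group medians and the dashed line is the median of all genes. At 21 h the elongation group lies to the left of the dashed line (median -0.25) and the start codon group to the right (median 0.23).

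All 5 genes of inhibitors and kinases, Eef2k included, lay above 0 h at 0.5 h (background 59.2%, all members 86.5%). Their changes ran from 0.14 to 0.46. Of the 5, 2 lay above 0 h at 7 h and 1 at 21 h, as did 4314 and 4535 of all 8637 genes. Eef2k, Eif4ebp2 and Eif4enif1 were each measured by 1 probe in a marked run. Eif4ebp1 and Eif4ebp2 encode proteins that block eIF4E until mTOR phosphorylates them. Eif4ebp1 had ratios of -0.30, -0.16, -0.27, 0.39 and 0.01 and a change of 0.69 at 7 h. Its SD over probes there was 1.09, because 1 probe in a marked run gave 2.31 while the other 3 gave 0.24, 0.22 and -0.02. Without that probe the change at 7 h was 0.15. Eif4ebp2 had ratios of 0.64, 1.09, 0.42, 0.00 and 0.23 on 1 probe in a marked run, with a change of -0.63 at 7 h. Eif4enif1, which carries eIF4E into the nucleus, reached 1.48 at 2 h on 1 probe in a marked run and lay between -0.26 and 0.41 at the other times. Eif2ak3, the eIF2 kinase of the endoplasmic reticulum, had changes of 0.19, -0.54, 0.016 and -0.12 on 2 probes outside the runs.

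Eif5a, which helps the ribosome through difficult stretches, and Eif6, which keeps the large subunit apart until it is mature, form the last group. Eif5a had ratios of -0.07, 0.07, -0.29, 0.21 and -0.49. It was highest at 7 h and lowest at 21 h, and between these arrays the mean difference was -0.70 log2 units (21 h minus 7 h). Its change from 0 h at 21 h was -0.41 (SD over probes 0.22, 2 probes in marked runs). Eif6 had changes between -0.20 and 0.29, with an SD over its 4 probes of 0.16 to 0.57.

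Relative to whole embryo, 30 of the 52 members lay below 0 at 0 h (background 52%) and 31 at 21 h (background 52.3%), and 20 were below on all 5 arrays (background 28.7%). All 20 probes of the 5 elongation subunits lay below embryo at both 0 h and 21 h. On all 5 arrays 17 members lay above embryo (background 24.7%), among them Eif4a1, Eif4b, Eif4e, Eif4h and Eif2s2. The 21 h array was the lowest of the 5 for 14 members (background 15.8%), of which 6 were elongation genes. The 7 h array was the highest for 13 (background 21.2%). Higher values than at 0 h at all 4 later times were found for 17 members (background 21%), and 25 lay below 0 h at 21 h (background 47.5%). Between 7 h and 21 h, Eef1a1, Eif4g2 and Eif5a were at least 1.5-fold lower at 21 h (background 5.9%), and Eif1b and Eif2s3x at least 1.5-fold higher (background 7.66%).

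Other genes of the translation pathway, taken from 6 further lists, gave the following values beside those of the factors. Of 17 genes of mTOR and cap-binding signalling 12 were measured, of which 1 passed 2-fold at 7 h, on the higher side (background 4.08%). At 2 h, 2 were 2-fold higher and 6 were 1.5-fold higher (backgrounds 12.4% and 21.8%). The 2-fold ones were Mtor (1.02) and Akt2 (1.20, on 1 probe in a marked run). Of the others, Mlst8 (0.78, SD over probes 1.90), Akt1s1 (0.77, SD over probes 1.17) and Tsc2 (0.63) had all probes in marked runs. Mknk2 (0.65, SD over probes 0.57) had 2 of 3 probes there. Marked runs were selected on high values at 0.5 h or 2 h. Akt2, Akt1s1 and Mknk2 were named after their values were seen. The gene at 7 h was Mtor, the kinase itself, with ratios of -1.27, -0.74, -0.25, -0.19 and -0.39 on 1 probe outside the marked runs. It stood 1.08 above 0 h at 7 h and 0.88 at 21 h. The list median was 0.31, 0.60, -0.022 and 0.025 in order of time. At 21 h the other genes with the largest changes were Ddit4 (0.55, on 1 probe in a marked run), Mlst8 (0.48, SD over probes 0.16) and Tsc2 (-0.33).

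Of 10 listed genes of the integrated stress response, which follows eIF2 phosphorylation, 6 were measured. Ppp1r15a, the phosphatase subunit that reverses that phosphorylation, had ratios of -0.32, 1.82, 0.99, 0.44 and 0.09 on 1 probe outside the runs. It was highest at 0.5 h (change 2.14) and came closer to 0 h at each later time. Atf4, the main effector of the response, had changes between -0.081 and 0.31. At 21 h Chac1 stood at -0.45 and Asns at -0.28.

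Among 18 measured tRNA synthetase genes and scaffolds, 1 passed 2-fold at 21 h, on the lower side (background 1.45%), and the median change there was -0.20. The 2-fold one was Vars (-1.21), whose probe lies in a marked run and read 4.18 above 0 h at 2 h. Mars1 (-0.60), Tars (-0.52, SD over probes 0.26) and Nars (-0.41, SD over probes 0.26) followed, on probes outside the runs. Of 7 measured release and recycling factors, 0 were 2-fold higher or lower at 7 h or 21 h. The backgrounds, higher and lower, were 4.08% and 3.16% at 7 h and 3.05% and 1.45% at 21 h. Gspt2, on 1 probe in a marked run, stood 1.345 above 0 h at 0.5 h. Gspt1, a release factor, stood 0.77 above 0 h at 7 h, also on 1 probe in a marked run. Denr, a recycling factor, stood at 0.66 there (SD over probes 0.030). At 21 h Gspt1 and Denr stood at -0.28 and 0.22, with Mcts1 at 0.30 and Gspt2 at 0.21.

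Of 5 measured poly(A)-binding proteins and partners, 0 reached 2-fold at any time (backgrounds from 1.01% to 12.4%). Larp1, which binds TOP messages and represses them, had ratios of -0.01, -0.14, 0.21, 0.84 and 0.15 on 1 probe outside the runs and was 0.85 above 0 h at 7 h. At 21 h Pabpc4 stood at 0.57, Pabpc1 at -0.25 (SD over probes 0.39, 2 probes in marked runs) and Paip2b at 0.19. The 6 measured mitochondrial translation factors had a median change of -0.051 at 21 h. The largest single changes were in Mrrf (0.38, SD over probes 0.40), Tsfm (-0.29, on 1 probe in a marked run), Mtif2 (-0.26) and Tufm (0.085). None of the 6 reached 2-fold at 7 h (backgrounds 4.08% higher and 3.16% lower) or 21 h (3.05% and 1.45%). Mtif3, on 1 probe in a marked run, had changes of 1.25, 3.53 and -0.69 at 0.5, 2 and 7 h. It was named after its values were seen.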

How the data were processed

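The deposited values were log10 ratios per probe, as read from their spread, since the base, the dye of each channel and the normalization by the authors are not given in the sources used here. They were multiplied by 3.32 and centred on the median of each array over the 18296 probes measured on all 5 arrays. Of 19828 probes, 14759 had exactly 1 gene symbol (GEO platform annotation, 2008), 170 had more and 4899 had no entry here. By Entrez identifier, 14628 single-symbol probes were found in the RefSeq gene table of GRCm38.p6, which left every symbol of the factors as annotated. Probes of a gene were averaged. Calculations used Python 3.11.15 with pandas 2.3.3, and the steps were tested on simulated data. Promoter sequences are from RefSeq.

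With 1 array per time, precision is limited by the number of arrays. Named are members at least 1.5-fold from 0 h at 7 h or 21 h or 2-fold at 0.5 h or 2 h, the 3 members with most probes of each group, and up to 4 genes with the largest change at 21 h per further list. Eef1b2, Eef1d and Eef2 (by role) and the remaining members were added after their values were seen. The members, lists and groups were chosen with earlier results of these data known.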

Additional observations from a re-analysis of the deposited data

How the results depend on the processing

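No paired analysis was possible because each time was measured on 1 array. Symbols as annotated could not change a list value, since every symbol of the factors was already as annotated. Probes measured on only the 2 arrays compared left all list values the same, within the limits set here. These limits were counts within 1.5 times and medians within the pooled SD between probes divided by the square root of the number of genes. Without centring, the members at least 2-fold lower numbered 2 at 7 h and 2 at 21 h, and the median change was -0.14 and -0.13 at these times. The median ratio to embryo was then -0.058, 0.10, 0.22 and -0.074 at 0, 0.5, 2 and 7 h. Under quantile normalization 1, 1, 2 and 1 members were at least 2-fold higher in order of time, and 1, 2 and 3 lower at 2, 7 and 21 h. The median change was 0.14 at 0.5 h and -0.025 at 2 h. The early changes of Eif2s3x turned to -0.60 at 0.5 h and -2.31 at 2 h. The cause was not tested. With only probes outside the marked runs, 1, 0 and 2 members were 2-fold higher at 0.5, 2 and 7 h, and 0 lower at 7 h and at 21 h. The median change was 0.16 at 0.5 h and -0.039 at 2 h. The median ratio to embryo was -0.28, -0.13, -0.19 and -0.15 at 0, 0.5, 2 and 7 h. The runs were selected on high values at 0.5 h and 2 h, so their removal lowers changes at those times by construction. Without centring the median change of all genes was -0.22 at 7 h and -0.12 at 21 h, and with centring on probes outside the runs it was 0.11 at 0.5 h and 0.17 at 2 h. Such centring gave a median change of 0.25 at 2 h and 2 lower members at 21 h, as did the median over probes (2). Against the 0.5 h array 5 members were 2-fold lower at 7 h and 5 at 21 h, with median changes of -0.10 and -0.27. Read as log2 values, 0, 1 and 0 members were higher at 0.5, 2 and 7 h, 0 lower at 7 h and at 21 h, and the median change was 0.076 at 0.5 h and 0.044 at 2 h. At 1.5-fold, 9, 8 and 5 were higher at 2, 7 and 21 h, and 3 and 2 lower at 7 h and 21 h.

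The median change of the 5 elongation subunits at 21 h was -0.12 read as log2 and -0.21 against the 2 h array. This result and its baselines were chosen after seeing the data. It was negative under each of the 11 alternatives run, from -0.55 to -0.12. Some of these could not change its sign. Reading as log2 only rescales it, and symbols as annotated and probes measured on the 2 arrays compared left it at -0.41. The change of Eef1a1 at 21 h ran from -1.13 without centring to -0.16 on its 1 probe outside the marked runs, and that of Eif4g2 at 7 h from 0.54 read as log2 to 2.23 under quantile normalization.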
